A study of Mus musculus with 4 samples.

Results

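The immediate early and dissociation response genes examined here were *Fos*, *Fosb*, *Jun*, *Junb*, *Jund*, *Egr1*, *Atf3*, *Ier2*, *Btg2* and *Dusp1*. They were taken by gene name, 10 genes of the 56883 in the expression table, and all 10 were found, each in 1 row. They were compared between genotypes as a check on handling and activity of the sorted cells. RNA sequencing covered tdTomato-positive cells sorted from the basal telencephalon of mouse embryos at E14.5. The control genotype was *Sst-Cre/tdTomato*, in which Cre follows the somatostatin gene and switches on the red reporter. The *Dnmt1* KO genotype was *Sst-Cre/tdTomato/Dnmt1 loxP2*, which carries the same Cre and reporter, so that a floxed *Dnmt1* is deleted in the same lineage. Each genotype had 2 libraries, and each library came from cells of several pooled embryos. The p-values of the main test rest on the spread between 2 pools per genotype and on a variance trend fitted over all tested genes. Tissue of both genotypes went through the same trypsin treatment, trituration, filtering and flow sorting into cold lysis reagent, and no unsorted or untreated sample stands beside them. The level that these genes had before the tissue was taken apart was therefore not measured.

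Immediate early genes are switched on within minutes of a stimulus, without new protein synthesis, by factors such as CREB and SRF that already sit in the cell. Calcium entry in active neurons, growth factors and the enzymatic and mechanical stress of making a cell suspension all act on them, which is why they serve as a readout of both activity and handling. Most of their proteins are transcription factors of the AP-1 and EGR families, their mRNAs decay quickly, and some members, such as *Dusp1*, switch the signal off again.

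Of the 10 genes, *Btg2* fell in the *Dnmt1* KO, to 0.488 of the control level, and no member was called higher in the main test. *Dusp1* was called higher in 1 alternative, with length and GC trends removed. Marker genes of progenitors, blood, vessels and excitatory neurons fell in the same libraries, and in bulk samples fewer cells of a type and less RNA per cell cannot be told apart. *Jun* and *Jund*, the most abundant members, lay within 1.09-fold and 1.08-fold over all 4 libraries. *Fos*, *Egr1*, *Dusp1* and *Jun* had higher values in both KO libraries than in both control libraries, by 1.30-fold, 1.19-fold, 1.25-fold and 1.05-fold. None of these differences passed the test, and 57.4% of all tested genes did not overlap between genotypes, in either direction. The test was limma on log2(normalized count + 1), over all 14323 genes whose normalized counts averaged 10 or more, with a gene called at a Benjamini-Hochberg adjusted p below 0.05. A normalized count is the gene count from the study's Salmon quantification, divided by 1 size factor for the library. These counts came back as whole numbers and are called reads here. Fold changes are KO over control, taken back from the limma difference in log2(normalized count + 1), so they are not plain ratios of mean counts.

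The labels were checked first. *Dnmt1* stood at 2238 and 2341 normalized counts in the control and at 2164 and 2210 in the KO libraries, a log2 fold change of -0.07 (SE 0.05, limma adjusted p = 0.461). The count runs over the whole gene, of which the floxed exons are a small part, so it does not check the deletion. *Sst*, the neuropeptide gene that drives Cre, stood at 5580 and 5963 in the control and at 8303 and 7825 in the KO, and the libraries carried the interneuron genes that the label calls for. Recovered reads per library ranged from 6970247 to 8376711, and 5.87% to 7.03% of them lay on mitochondrial genes, with the lower values in the KO.

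The promoters of the members were searched for elements known in early response genes, and 4 of them are printed here because the called gene, the member nearest to the call and a member with almost equal values share one full element that *Fos* lacks in this window. The window runs from 250 bases before to 50 bases after the start of the canonical GENCODE transcript in GRCm39, and 300 bases were read at chr1:134006809-134007108 for *Btg2*, chr17:26727444-26727743 for *Dusp1*, chr8:85389434-85389733 for *Ier2*, each on the minus strand, and chr12:85520408-85520707 for *Fos* on the plus strand. Capitals mark the cAMP response element (CRE, TGACGTCA), its short form (TGACG, or CGTCA when it lies on the other strand), the EGR element (GCGNGGGCG) and the TATA box (TATAAA), where the script found them on either strand.
Btg2: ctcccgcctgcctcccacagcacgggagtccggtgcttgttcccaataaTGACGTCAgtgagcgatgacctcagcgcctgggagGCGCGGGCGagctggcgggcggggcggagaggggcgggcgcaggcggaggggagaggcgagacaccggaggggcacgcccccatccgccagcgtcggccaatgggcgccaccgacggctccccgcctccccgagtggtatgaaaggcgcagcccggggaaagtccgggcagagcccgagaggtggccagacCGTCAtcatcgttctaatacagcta
Dusp1: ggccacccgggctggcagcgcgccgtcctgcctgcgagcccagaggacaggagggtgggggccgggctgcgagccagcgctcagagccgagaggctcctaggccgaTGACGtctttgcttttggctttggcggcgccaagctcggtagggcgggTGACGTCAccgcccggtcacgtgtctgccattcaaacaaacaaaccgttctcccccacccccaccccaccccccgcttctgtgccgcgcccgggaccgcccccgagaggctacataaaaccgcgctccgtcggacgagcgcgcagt
Ier2: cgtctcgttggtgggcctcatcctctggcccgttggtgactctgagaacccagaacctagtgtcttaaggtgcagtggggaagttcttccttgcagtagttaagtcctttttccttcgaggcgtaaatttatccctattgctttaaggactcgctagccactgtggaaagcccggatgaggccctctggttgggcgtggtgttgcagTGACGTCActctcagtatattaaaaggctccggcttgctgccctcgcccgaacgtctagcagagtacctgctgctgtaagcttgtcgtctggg
Fos: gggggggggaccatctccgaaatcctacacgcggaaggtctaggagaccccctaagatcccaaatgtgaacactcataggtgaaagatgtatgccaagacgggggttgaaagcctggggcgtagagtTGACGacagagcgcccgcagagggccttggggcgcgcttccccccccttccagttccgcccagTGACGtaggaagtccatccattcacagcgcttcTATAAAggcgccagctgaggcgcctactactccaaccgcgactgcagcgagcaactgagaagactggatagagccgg

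The full CRE, the element that CREB binds, stood in the windows of 4 of the 10 members, *Jund*, *Ier2*, *Btg2* and *Dusp1*, and in 3.43% of the 12278 promoters of tested protein-coding genes. Counted from the start, it lay at -201 to -194 in *Btg2*, at -96 to -89 in *Dusp1*, at -43 to -36 in *Ier2* and at -214 to -207 in *Jund*. The short form, which lies inside every full site, stood in 9 of 10 members, all but *Jun*, against 30.3% of promoters, and *Fos* held 2 of them. The EGR element was found in *Fosb*, *Jund* and *Btg2* (3 of 10, against 9.25%), and the TATA box in *Fos* and *Junb* (2 of 10, against 7.51%). The AP-1 element (TGANTCA, 4.67% of promoters) and the CArG box that SRF binds (1.39%) were in none of the 10 windows, which says only that these letters are not in this stretch. A match is a description of the sequence. The full CRE was present in the called member, *Btg2*, and also in *Jund* and *Ier2*, whose fold changes between genotypes were 1.02 and 1.01.

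The other sequence that these mRNAs are known for is an AU-rich element in the 3′ untranslated region, which recruits decay factors such as those of the ZFP36 family. The heptamer TATTTAT stood in this region in 7 of 10 members (70.0%), all but *Junb*, *Egr1* and *Ier2*, and in 34.6% of 12140 tested protein-coding genes with such a region. *Dusp1* held 3 and *Fos* 2 of them. Windows of 30 bases around 1 heptamer, in capitals, are shown for the called gene and for *Dusp1*, *Fos* and *Jun*, as DNA letters of the sense strand in GRCm39.
Btg2: aaaatgaagagcTATTTATacatgtttttt
Dusp1: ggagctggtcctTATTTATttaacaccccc
Fos: gtgttttcaattTATTTATtaagatggatt
Jun: tttgcttgtgcaTATTTATaatagcgttcg

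In gene structure the members varied. *Jun*, *Junb*, *Jund* and *Ier2* have a single exon (40.0% of members, against 3.03% of the 12278 genes), and the median transcript length was 2117.5 bases, against 3815, although the transcripts of *Btg2* and *Egr1* lay above the latter value. The median GC content of the transcripts was 55.8%, against 50.3%.

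The plot of normalized counts by library shows all 10 genes, from more than 1000 for *Jund* to under 10 for *Atf3*.

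**Figure D1:**
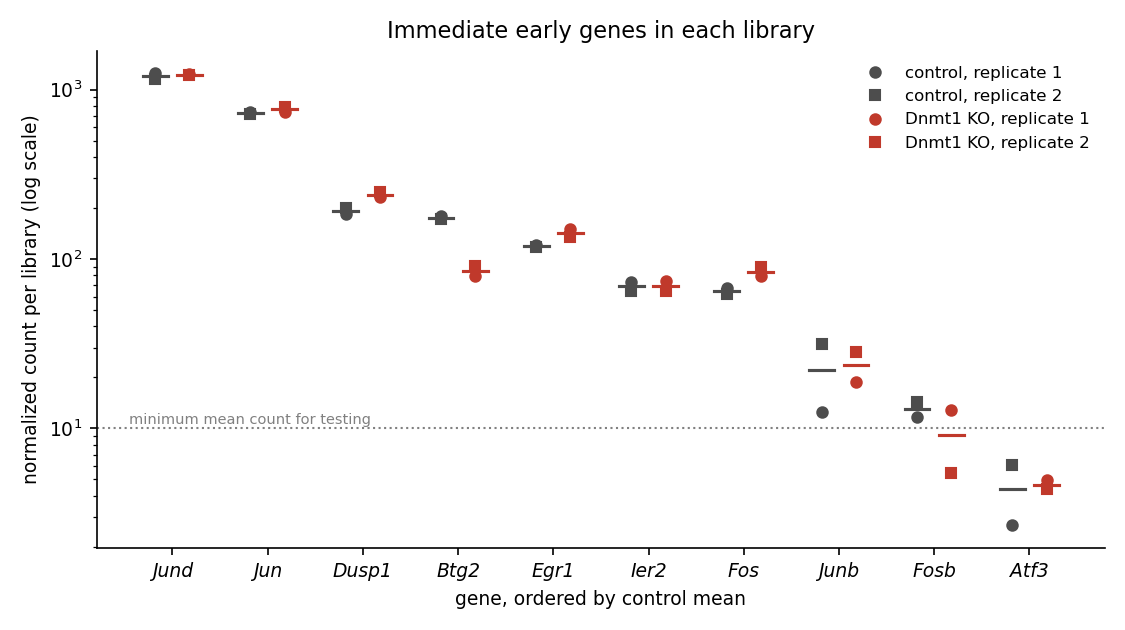
Normalized counts of the 10 genes in each library on a log axis, with controls in grey, *Dnmt1* KO in red, circles for replicate 1, squares for replicate 2 and bars for genotype means. *Btg2* is the one gene whose KO libraries (79.9 and 90.7) lie far below the controls (180 and 172), and the dotted line marks the mean count of 10 needed for testing.

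The FOS proteins dimerize with JUN proteins to form AP-1. *Fos* (chr12:85520658-85524047), the gene most used as a sign of recent activity, had 67.1 and 62.3 normalized counts in the control and 78.9 and 89.6 in the KO libraries. Both KO values lay above both control values, by a log2 fold change of 0.37 (95% interval -0.06 to 0.81, limma adjusted p = 0.239). The interval runs from 0.958-fold to 1.75-fold, so a rise of that size or no rise at all cannot be told apart here. *Fosb*, its paralog, was read at 11.6 and 14.3 in the control and at 12.8 and 5.46 in the KO libraries. The groups overlapped, the log2 fold change of -0.56 had an interval from -1.73 to 0.62 (adjusted p = 0.549), and it rested on 1 library, since without KO replicate 2 it was -0.01.

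*Jun* (chr4:94937271-94940459), the central partner, stood at 735 and 722 in the control and at 738 and 787 in the KO libraries. The values did not overlap, but their distance was small, a log2 fold change of 0.07 (95% interval -0.10 to 0.23, limma adjusted p = 0.618). *Jund*, which is expressed in most cells without a stimulus, had 1246 and 1158 in the control and 1241 and 1211 in the KO. The KO values lay between the control values, and the interval of the fold change reached from 0.926 to 1.13 (adjusted p = 0.813). Its direction was the opposite, at -0.02, with quantile normalization and without control replicate 2. *Junb*, induced together with *Fos* in many cells, had 12.5 and 31.6 in the control and 18.7 and 28.4 in the KO. Its 2 control libraries differed by 1.34 on the log2 scale where counting error alone gives an SD of 0.465, the groups overlapped, and the log2 fold change of 0.20 (adjusted p = 0.814) became -0.44 without control replicate 1 and -0.09 without KO replicate 2. The lncRNA genes *Gm65321* and *Junos* are annotated across *Junb* and *Jun* on the other strand, and the strand setting of the counting is not given in the sources used here. *Gm11175* crosses *Jund* in the same way. *Junos* had means of 6.13 in the control and 4.16 in the KO, and *Gm11175* of 13.2 and 12.3, while *Gm65321* was not analysed here.

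*Egr1* encodes a zinc finger factor that follows neuronal activity and ERK signalling closely. It had 121 and 118 normalized counts in the control and 150 and 135 in the KO libraries. As for *Fos*, both KO values were the higher ones, and the log2 fold change was 0.25 (95% interval -0.08 to 0.58, limma adjusted p = 0.305). *Atf3*, the stress-induced factor of the ATF family, was near the detection limit, with 2.68 and 6.13 in the control and 4.93 and 4.37 in the KO, that is, 9 reads in all in each genotype. It was not tested, and the ratio of its reads, scaled by library size, was 1.09, with an exact 95% interval for counting error from 0.382 to 3.09. *Ier2*, a small nuclear protein of the early response, had 73.4 and 64.3 in the control and 74.0 and 64.5 in the KO. These pairs nearly coincided, with a fold change of 1.01 whose interval ran from 0.733 to 1.38 (adjusted p = 0.988), and the sign of its log2 value turned without control replicate 2 and without KO replicate 1 (-0.09 in each case).

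*Dusp1* (chr17:26724564-26781102) encodes the phosphatase that inactivates p38, JNK and ERK and so ends the early response. It had 184 and 199 normalized counts in the control and 232 and 247 in the KO libraries. Both KO values were above both control values, with a log2 fold change of 0.32 (SE 0.12, 95% interval 0.05 to 0.58). The unadjusted p was 0.0213 and the limma adjusted p was 0.0926, so it was not called. It was called, at a log2 fold change of 0.43 and an adjusted p of 0.0249, after the dependence on length and GC of the transcripts had been taken out of each library. The KO libraries held more reads on long transcripts than the control libraries, by 0.0537 to 0.0560 log2 units per doubling of length, against 0.0006 to 0.0017 between libraries of 1 genotype. The parts of length and of GC content in the shift of *Dusp1* were not tested.

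*Btg2* (chr1:134002908-134015033) encodes an antiproliferative protein that is induced by p53 and by early response signals and is known in the embryonic forebrain for its expression in progenitors that are about to make neurons. It had 180 and 172 normalized counts in the control and 79.9 and 90.7 in the KO libraries. The replicates of each genotype lay close together, at 175.7 ± 5.91 in the control and 85.3 ± 7.63 in the KO (mean ± SD, n = 2), and every KO value was below every control value. *Btg2* fell by 1.04 on the log2 scale (SE 0.16, limma adjusted p = 0.000377), a fold of 0.488 with a 95% interval from 0.384 to 0.619. The call was also made by edgeR (adjusted p = 0.000273), DESeq2 (0.00114) and limma-voom (0.000481), and it was lost in limma without the variance trend (adjusted p = 0.0616), a setting in which no gene of the 14323 was called. For this gene alone, an exact two-sided permutation test over 2 against 2 libraries cannot go below p = 0.333. The antisense gene annotated across it had 0 counts in both genotypes.

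**Figure D2:**
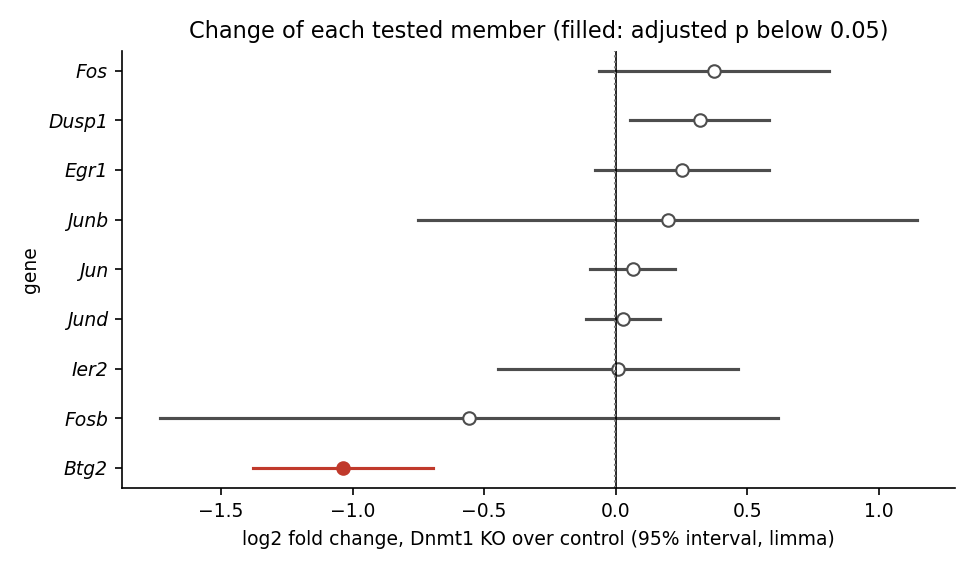
Log2 fold change (*Dnmt1* KO over control, x axis) of the 9 tested members, with 95% intervals from limma and a filled point for the called gene. *Btg2*, at -1.04, is the one filled point, and of the 8 open ones the interval of *Dusp1* (0.05 to 0.58) is the one that leaves out 0 before adjustment.

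Counted together, 1 of the 9 tested members was called lower, against 8.99% of all tested genes, and 0 were called higher, against 8.30%. In both directions this makes 1 of 9, against 17.3%. At an unadjusted p below 0.05, 2 members (*Btg2* and *Dusp1*) passed, against 30.2% of all tested genes, and edgeR, DESeq2 and limma-voom called none higher either. The genotypes did not overlap for 5 of the 9, of which 4 were higher in the KO (*Fos*, *Jun*, *Egr1* and *Dusp1*), and with 2 libraries per genotype 57.4% of all tested genes did not overlap. Of the 14323 tested genes, 4066 were without overlap and higher in the KO, and 4160 without overlap and lower. Neither the count of calls nor the 5 members without overlap set the members apart from the tested genes as a whole. The median log2 fold change of the 9 was 0.07, beside -0.0033 for all genes tested. Summed over the members, the level was 351 and 343 RPM (reads scaled to a common library total) in the control and 344 and 350 in the KO libraries, so the genotypes overlapped, and 73.8% to 75.2% of those reads lay on *Jun* and *Jund*.

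Levels of different genes were compared as RPKM, the reads of a gene scaled by the length of the transcript with its longest coding sequence and by the reads of the library, over all 4 libraries. *Jund* led with 96.5 ± 2.67 (mean ± SD, n = 4), above 96.8% of the 14285 tested genes with an annotated transcript length, and *Jun* followed with 31.0 ± 0.966 (percentile 87.7) and *Dusp1* with 14.3 ± 1.76 (percentile 73.0). *Ier2* at 6.00 ± 0.449, *Fos* at 4.66 ± 0.715 and *Egr1* at 3.86 ± 0.383 lay between the percentiles 50.3 and 38.8. *Ier2* and *Fos* were each above *Egr1* in all 4 libraries, and *Ier2* was above *Fos* except in KO replicate 2, where they were almost equal at 5.55 and 5.56. *Junb* at 1.67, *Fosb* at 0.388 and *Atf3* at 0.283 came last, and the latter pair also overlapped. The place of *Btg2* depends on the transcript taken: its RPKM was 3.93 in the control and 1.87 in the KO over a transcript of 5994 bases, a mean of 2.90, and the mean was 6.33 with the canonical transcript of 2743 bases.

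By a rule over 8418 genes with a mean of at least 100, the genes whose log2 values over the 4 libraries lay nearest to those of *Fos*, after centring, were *Pde2a*, *Spring1*, *Zfp131*, *Fgd3* and *Bcl9*, at Euclidean distances of 0.011 to 0.042. With 4 libraries 87 genes lay within 0.1, so the likeness is a weak one and is given as a description.

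Other genes of the same response were counted from lists of related genes. Among 44 other immediate early genes 35 were tested, of which 3 rose and 4 fell, against 17.3% of all tested genes called in either direction, and the median log2 fold change was 0.01. *Nr4a2*, an orphan nuclear receptor gene of the early response and of dopaminergic and other neurons, had 128 and 94.9 in the control and 49.3 and 37.1 in the KO, and it fell by 1.34 on the log2 scale (limma adjusted p = 0.000973). *Zfp36l1*, which encodes a factor that binds AU-rich elements, went from 273 and 240 to 111 and 109. *Gadd45g* and *Ier5* fell by 0.74 and 0.49. *Dusp4*, *Btg1* and *Plk2* rose by 0.37, 0.35 and 0.20 on the same scale. *Btg1*, the paralog of *Btg2*, thus rose, from 631 and 639 to 798 and 826, while *Btg2* fell. *Egr2* and *Fosl1* had 0 counts in all 4 libraries, which allows up to 0.358 to 0.430 RPM, the level of 3 reads in a library.

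The 18 tested heat shock and unfolded protein genes (of 20), which respond to misfolded protein, had 3 called lower and 0 higher. The shares over all tested genes were 8.99% and 8.30%. The median of the list was -0.11. At an unadjusted p below 0.05 in limma, 1 was higher and 5 were lower, against 30.2% of all tested genes in either direction. The called genes were chaperones with small changes, *Hspa4l* at -0.40, *Hsp90ab1* at -0.16 and *Hspa8* at -0.11, and edgeR, DESeq2 and limma-voom called none of the list higher. With length and GC trends removed, *Xbp1*, the factor gene of the unfolded protein response, was called higher (log2 fold change 0.38, limma adjusted p = 0.0396), *Hspa4l* and *Dnaja1* were called lower, and *Hsp90ab1* and *Hspa8* were not called. *Xbp1* and *Dnaja1* were chosen after their values were seen. Without control replicate 2, limma called 0 genes of the list. The inducible *Hspa1a* and *Hspa1b* are near-identical copies that can share reads, and they were summed after their values were seen. They came to 42.1 and 24.5 in the control and to 35.5 and 43.7 in the KO libraries, with overlap.

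Of 14 activity-dependent neuronal genes, which follow the early genes by hours, 11 were tested, and 5 fell, 1 rose and 5 did not pass. Over all tested genes, 8.99% were called lower and 8.30% higher. *Nptx1*, a secreted pentraxin that gathers glutamate receptors, had 83.2 and 73.5 in the control and 26.6 and 41.5 in the KO, a log2 fold change of -1.21. *Rgs4* and *Rgs2*, brakes on G protein signalling, changed by -0.72 and -0.70, *Scg2*, a granin gene, by -0.70 and *Baz1a*, a chromatin remodeller gene, by -0.53. *Vgf*, a neuropeptide precursor gene, rose from 48.3 and 60.2 to 92.7 and 99.4. The median of the list was -0.42, and its count of 6 called genes went down to 3 with DESeq2 and without control replicate 1.

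The kinases, coactivators and factors that stand upstream of the early genes were all tested, 27 of 27. In limma 5 rose while 0 fell, and likewise in edgeR, DESeq2 and limma-voom. Of all tested genes, limma called 17.3% in either direction and 8.30% higher. At an unadjusted p below 0.05 in limma, 8 were higher and 1 was lower, a share near the 30.2% of all tested genes. *Rps6ka5*, which encodes the kinase MSK1 of CREB and histone H3, went from 319 and 341 to 506 and 504, a log2 fold change of 0.61. *Crtc1*, a CREB coactivator gene, rose by 0.56, *Mapk10*, the neuronal JNK gene, by 0.37, *Ep300* by 0.27 and *Crebbp* by 0.25. The median of the list was 0.05. Among the other bZIP partners of FOS and JUN, *Nfe2l2*, the oxidative stress factor gene, was the 1 called of 10 tested and fell by 1.28, from 75.2 and 59.2 to 38.5 and 18.6. Its call was lost with DESeq2 (adjusted p = 0.0634), without control replicate 1 (0.129), without KO replicate 2 (0.0719) and in limma without the variance trend (0.178). Among the other dual-specificity phosphatases, *Dusp8* was the 1 called of 6 tested and rose by 0.37. Beside the counts of the bZIP partners and of these phosphatases, 17.3% of all tested genes were called in either direction.

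**Figure D3:**
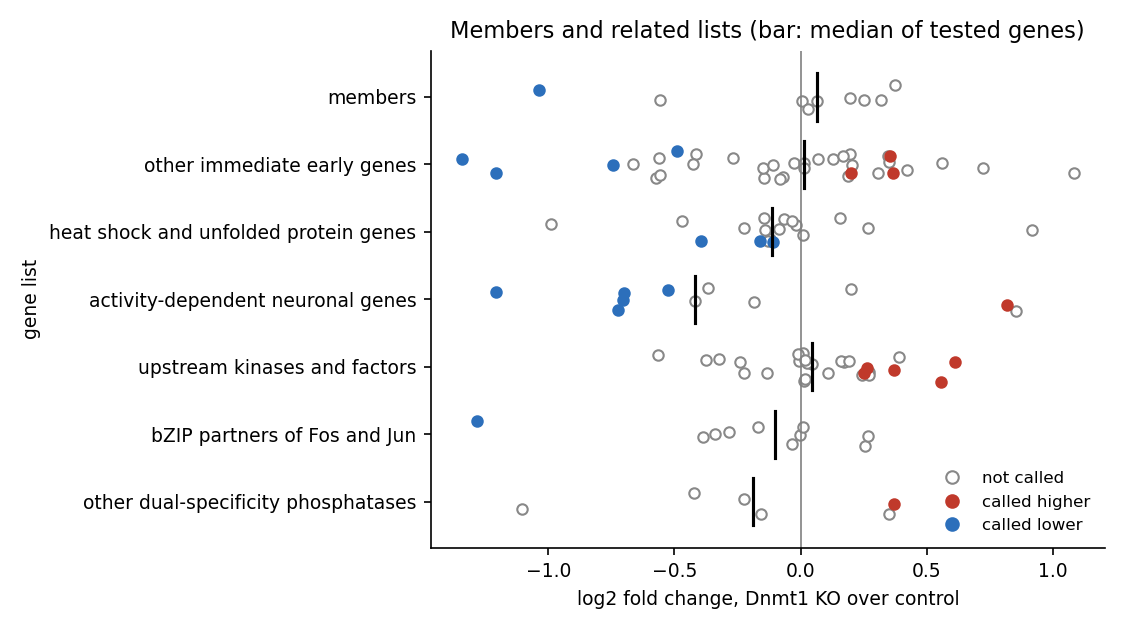
Log2 fold change (x axis) of every tested gene of the members and of 6 related lists, with blue for genes called lower, red for genes called higher, open circles for genes not called and a black bar for the median. Upstream kinases and factors show 5 red and no blue points, and activity-dependent genes 5 blue points and 1 red one. Of all tested genes, 8.30% were called higher and 8.99% lower.

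Marker genes of other cell types moved with genotype in the same libraries. Beside the counts called in these marker lists, 8.30% of all tested genes were called higher and 8.99% lower. Summed normalized counts of 16 interneuron markers were 25121 and 25430 in the control and 38857 and 39151 in the KO, with 14 of 16 called higher. Those of 12 radial glia markers were 12384 and 12427 against 7516 and 7760, with 8 called lower and *Sox2* higher, and those of 12 cell cycle markers were 7244 and 7251 against 5087 and 5144, with 10 called lower.

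The paper places Cre expression in postmitotic SST-positive cells, so the sort should leave out radial glia and cycling cells. The same holds for the cells of the remaining lists. Excitatory lineage genes fell in 7 of 9 tested cases, from sums of 2872 and 2980 to 1690 and 1550. Vascular and fibroblast genes fell in 12 of 13, from 926 and 967 to 401 and 427. The blood list fell in 8 of 8, from 2610 and 2433 to 587 and 592, and the microglia list in 2 of 4, from 119 and 137 to 41.4 and 53.5. These lists were thus present in the control libraries and lower in both KO libraries. Of 4 tested oligodendrocyte lineage genes 0 passed in limma, edgeR, DESeq2 or limma-voom, 1 was lower at an unadjusted p below 0.05 in limma, and the sums were 208 and 170 against 139 and 111.

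Relative to the control mean, *Btg2* stood at 0.455 and 0.516 in the KO libraries. It lay between the vascular sum (0.424 and 0.451) and the excitatory lineage sum (0.577 and 0.530). The radial glia sum (0.606 and 0.625) was above *Btg2* and the blood sum (0.233 and 0.235) below it. Single radial glia markers differed from their sum. Their log2 fold changes ran from -1.03 for *Nes* and *Vim* to 0.40 for *Sox2*, with a median of -0.80. That of *Btg2* was -1.04. The part of these cell types in the change of *Btg2*, in the values of *Fos*, *Egr1* and *Dusp1*, or in the called genes of the related lists was not tested. No marker of these lists was at 0 in all libraries.

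**Figure D4:**
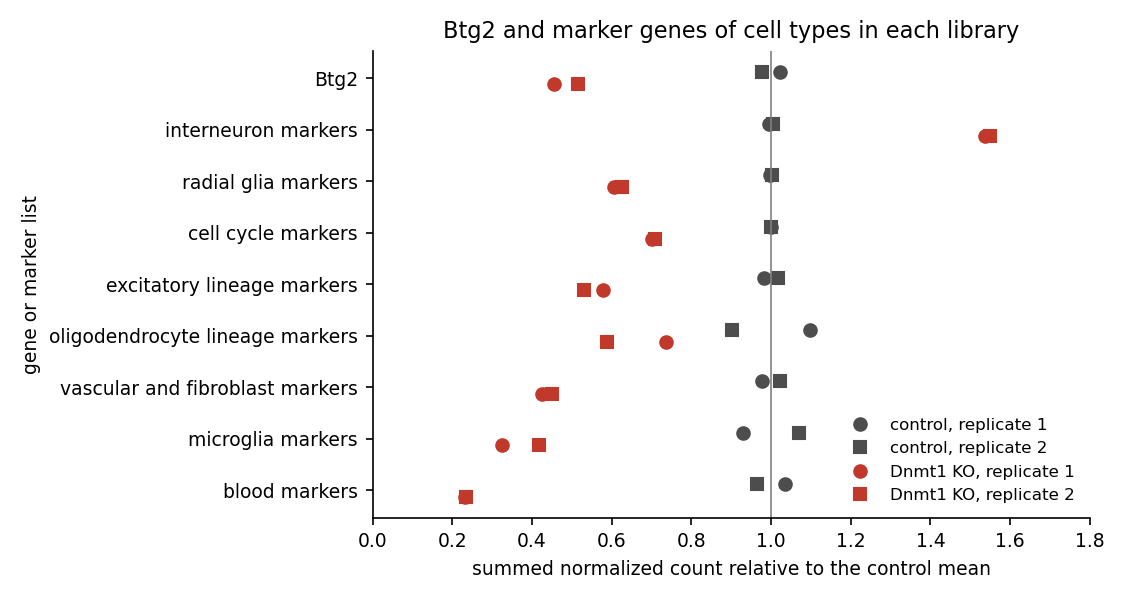
Normalized count of *Btg2* and summed normalized counts of 8 marker lists in each library, relative to the control mean (x axis, linear from 0), with controls in grey, *Dnmt1* KO in red, circles for replicate 1 and squares for replicate 2. Interneuron markers lie above 1 in both KO libraries (1.54 and 1.55), and *Btg2* and the 7 other lists lie below the controls.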

How the data were processed

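Total RNA of sorted tdTomato-positive cells was sequenced in 2 control and 2 *Dnmt1* KO libraries, grouped by the sample labels. Per the labels and the methods, the authors used a stranded kit, Trim Galore, STAR against GRCm39, Salmon for gene counts and DESeq2 1.32.0 for scaling. The deposited signal is a count divided by 1 size factor per library. Whole reads came back for all 89965 non-zero values (100%, tolerance 0.0001 of a read), and size factors were 1.12, 0.980, 1.01 and 0.915 (control, then KO).

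Genes whose normalized counts averaged 10 or more were tested with limma 3.58.1 in R 4.3.3 (log2(value + 1), eBayes with trend, genotype as the only term, Benjamini-Hochberg). Alternatives were a pseudocount of 0.5 or 10, no filter or a mean of at least 50, TMM factors, quantile normalization, no variance trend, edgeR 4.0.16, DESeq2 1.42.0 and limma-voom on recovered reads (which also gave RPKM), removal of length and GC trends (spline of 5 degrees of freedom), a replicate block, and fits without each of the 4 libraries. The last assume that the lone library varies like the others. The main limma fit was tested on simulated data, and the alternatives were not. The canonical transcript for per-length levels was chosen after the data were seen.

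Positions, transcripts and sequences came from GENCODE and the GRCm39 genome. Motifs were searched on both strands of 1 window per gene. AU-rich heptamers were searched in the 3′ untranslated region of the canonical transcript, in place of the last exon that was planned. 1 gene of the related lists, *Ddit3*, has 2 rows, and the more abundant one was used. Of each related list, up to 5 called genes per direction with the largest fold change are named. The members and lists were chosen with earlier results of these data known. Reads behind one value are not independent molecules, and the counting interval covers counting error only. Python 3.11.15, numpy 2.4.6, scipy 1.17.1, pandas 2.3.3 and matplotlib 3.10.9 were used.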

Additional observations from a re-analysis of the deposited data

How the results depend on the processing

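Each SD and each spread rests on 2 libraries per genotype, so fold changes of members with few reads (*Fosb*, *Junb*, *Atf3*) are imprecise, and members that did not pass the test are not shown to be equal. The log2 fold change of *Btg2* lay between -1.13 and -0.95 over 16 alternatives, with adjusted p from 1.69e-07 to 0.0616, and it lost the call in 1 of them, limma without the variance trend. That setting called 0 of 14323 genes, 0 members and 0 genes of every related list, although 3339 genes and 3 members had an unadjusted p below 0.05 in it; edgeR called 2528 genes and limma-voom 2496, against 2476 in limma with the trend. DESeq2 called 1317 genes, with 1 member, 1 heat shock gene, 3 activity-dependent genes and 1 gene of the bZIP partners and phosphatases (2 with limma), and gave *Fosb* no adjusted p. With length and GC trends removed, 2 members (*Btg2* and *Dusp1*), 4 bZIP partners and phosphatases and a median of 0.16 over the members (0.07 before) were found. The adjusted p of *Dusp1* ranged from 0.0249 to 0.394. A minimum mean count of 50 left 1 of the bZIP partners and phosphatases called.

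With 1 library left out, 1525 (without control replicate 2) to 2205 genes were called, with 1648 without control replicate 1. Members called stayed at 1, heat shock genes were 0 to 3, activity-dependent genes 3 to 6, and bZIP partners and phosphatases 1 (without control replicate 1 or KO replicate 2) to 3. The sign turned for *Junb* (-0.44 without control replicate 1, -0.090 without KO replicate 2), *Ier2* (-0.086 without control replicate 2, -0.090 without KO replicate 1) and *Jund* (-0.023 without control replicate 2 and with quantile normalization), none of them called. Leave-one-out values reached 0.83, 0.11 and 0.082 for these 3 genes. Causes were not tested. The replicate number as a block gave 2957 genes and 1 member (*Btg2*). Deviations of same-numbered libraries had r = -0.085 over 14323 genes, so no pairing by number was seen. With 2 libraries per genotype, this value cannot settle whether the libraries were paired. The RPKM of *Dusp1* was 12.3 with its longest transcript (14.3 otherwise).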
